A study of Caenorhabditis elegans with 43 samples.

Results

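The genes lin-14, lin-28 and lin-46 belong to the heterochronic pathway of Caenorhabditis elegans, which sets the order in which larval cells take their stage-specific fates. They were found by symbol among the 20182 genes of the deposited table of ribosome footprint counts, and all 3 members had counts in all 43 libraries. Footprints are the mRNA fragments protected by ribosomes, so a level here reflects both the amount of an mRNA and how heavily it is occupied by ribosomes. Worms were sampled whole, every 2 h, and each strain had 1 library per hour. Wild type N2, the single mutant lin-41(xe11) and its double with the microRNA allele, lin-41(xe11);let-7(n2853), were followed from 18 to 38 h of development (11 libraries each), and let-7(n2853) alone from 18 to 36 h (10 libraries). All animals were grown at 25 °C on E. coli NA22 from larvae arrested at hatching, and no labelled allele lies in a member. The n2853 lesion is a single base change in the seed of let-7, and xe11 alters the sequences of lin-41 that pair with this microRNA. In double mutants the altered sites were designed to match the altered microRNA, while other let-7 targets stay mismatched. The let-7(n2853) libraries come from a first time course with monosomes from sucrose gradients, and the other strains from a second with size-exclusion chromatography. A constant difference between let-7(n2853) and N2 therefore cannot be told apart from the time course or the purification.

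LIN-14 is a nuclear protein that promotes the fates of the first larval stage, and LIN-28 is an RNA-binding protein that promotes those of the second stage and blocks the maturation of let-7. The mRNAs of both are repressed by the lin-4 microRNA early in larval life. LIN-46 resembles the scaffold protein gephyrin, acts against the retarding factors downstream of LIN-28 and promotes the fates of the third stage, and LIN-28 is known to hold back its synthesis. Per the series' design text, sampling began around the passage from the second to the third larval stage.

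The genes lie on different chromosomes of the WBcel235 assembly. The gene lin-14 (WBGene00003003) spans X:11465560-11485871 on the plus strand, with 11 coding exons and a longest coding length of 1617 nt. The gene lin-28 (WBGene00003014) spans I:8407630-8410804 on the minus strand, with 3 coding exons and 681 nt. The gene lin-46 (WBGene00003031) spans V:12968855-12970730 on the plus strand, with 5 coding exons and 1173 nt. No exon of another annotated gene overlies the coding bases of any member. Libraries held 5020197 to 12361022 counts in N2, 7040947 to 12551598 in lin-41(xe11), 6133302 to 12797339 in double mutants and 17364056 to 32261888 in let-7(n2853). Levels are CPM, the counts of a gene in 1000000 counts of its library, scaled by trimmed mean of M-values (TMM) library sizes, and intervals of single libraries are exact 95% Poisson intervals that cover counting error only. Hours 18 to 24 form an early window (n = 4 per strain) and hours 28 to 36 a late window (n = 5). With 1 library per strain and hour, the hours themselves serve as replicates, and a p-value reflects how much hours differ rather than how much separate cultures do.

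Markers of some tissues in a whole worm also moved over these hours. The summed level of 12 neuronal markers ran from 587 to 857 CPM in the early libraries of the 4 strains and from 351 to 577 CPM in the late ones. The sum of 12 germline markers ran from 369 to 654 CPM early and from 951 to 1713 CPM late. In N2, 10 of 12 neuronal markers fell (median log2 change -0.73) and 11 of 12 germline markers rose (median 2.24), beside a median of -0.02 over all genes. The sum of 8 markers of the epidermis and seam cells ran from 331 to 760 CPM early and from 125 to 743 CPM late. Of these 8 markers 3 fell in N2 and 0 rose (median log2 change -0.78). Of 5 intestinal markers 0 were called in N2 (median log2 change 0.21). Of 6 markers of body wall muscle 1 fell in N2 and 0 rose (median -0.16). Among the marker genes of 5 tissues bro-1, a seam cell gene, was at 0 in 1 library, and the others were counted in every library. In whole worms, fewer cells of a type and fewer footprints per cell cannot be told apart.

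**Figure D1:**
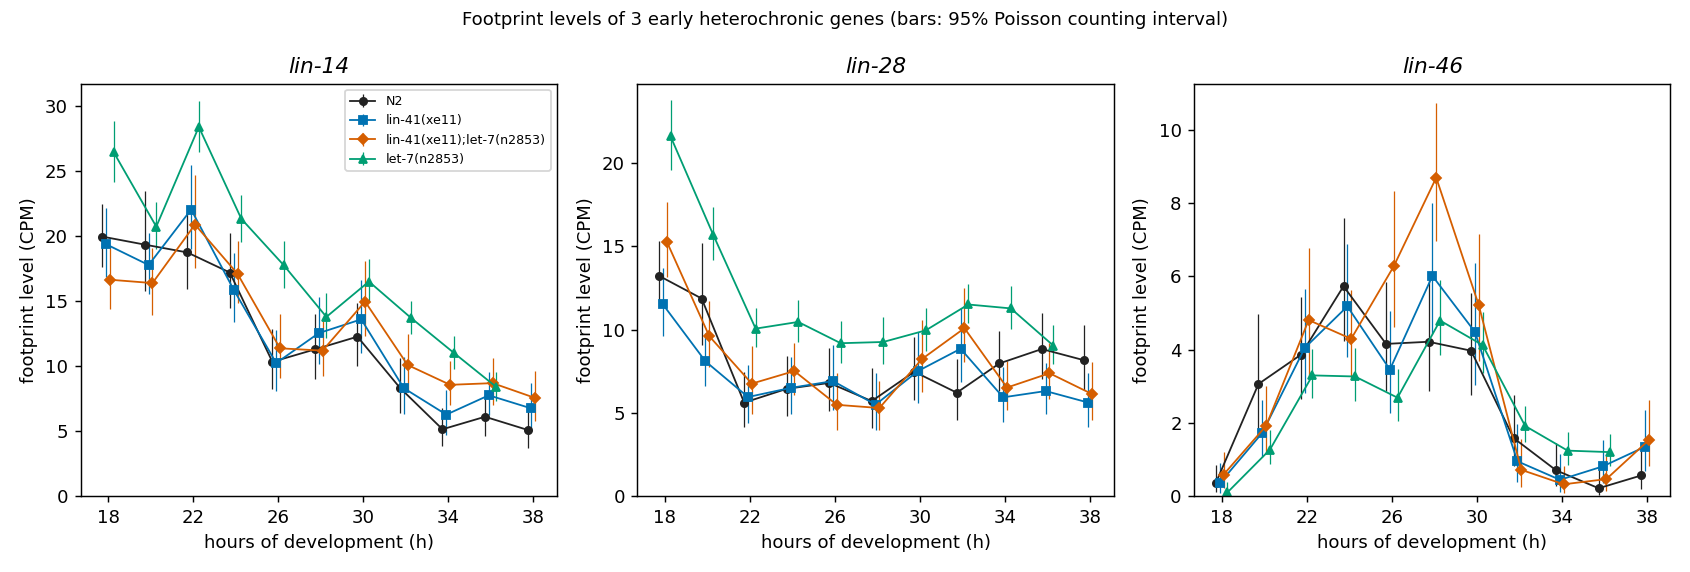
Footprint level in CPM (y axis) of lin-14, lin-28 and lin-46 against hours of development (x axis), 1 point per library, with 95% Poisson intervals as bars and 1 colour per strain (points are set slightly apart along the x axis). In N2, lin-14 stands at 20.0 CPM at 18 h and 5.10 at 38 h, lin-28 is highest at 18 and 20 h, and lin-46 is high from 22 to 30 h.

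The footprints of lin-14 declined through the sampled hours in all 4 strains. In N2 the level was 20.0 CPM at 18 h, 19.3 at 20 h, 18.7 at 22 h and 17.2 at 24 h, then 10.3 at 26 h. It was 11.3 CPM at 28 h, 12.3 at 30 h, 8.33 at 32 h, 5.15 at 34 h, 6.11 at 36 h and 5.10 at 38 h. The first 4 hours form a high shelf, the drop falls between 24 and 26 h, and a lower drop follows 30 h. These values rest on 45 to 270 counts per library. A straight line through the 11 hours of N2 had a slope of -1.05 ± 0.11 (log2 per 10 h, ± SE, adjusted p = 2.14e-05), which is a 2.07-fold decrease in 10 h. The slope was -0.85 ± 0.13 in lin-41(xe11) (adjusted p = 0.000341), -0.63 ± 0.12 in double mutants (adjusted p = 0.00176) and -0.83 ± 0.12 in let-7(n2853) (adjusted p = 0.000487). Negative slopes passed in 19.7% of all genes in N2, 18.2% in lin-41(xe11), 16.4% in double mutants and 16.3% in let-7(n2853).

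The windows gave the same direction for lin-14. In N2 the mean was 18.8 ± 1.19 CPM early (SD, n = 4) and 8.63 ± 3.12 CPM late (SD, n = 5). The change was -1.16 ± 0.21 (log2 ± SE, adjusted p = 0.0135), or 2.23-fold lower, in a comparison where 8.13% of all genes fell. In lin-41(xe11) the early libraries held 19.4, 17.8, 22.0 and 15.9 CPM and the late ones 12.5, 13.6, 8.31, 6.27 and 7.76 CPM. In double mutants the early libraries held 16.6, 16.4, 20.9 and 17.1 CPM and the late ones 11.2, 15, 10.1, 8.56 and 8.69 CPM. In let-7(n2853) the early libraries held 26.4, 20.7, 28.4 and 21.3 CPM and the late ones 13.8, 16.5, 13.7, 11 and 8.38 CPM. In every strain all early hours were above all late hours, and the late levels closest to the early ones were those of 30 h. The changes were -0.95 ± 0.21 in lin-41(xe11) (adjusted p = 0.0193), -0.74 ± 0.16 in double mutants (adjusted p = 0.0236) and -0.93 ± 0.18 in let-7(n2853) (adjusted p = 0.0112). Of all genes 8.24%, 6.05% and 10.3% fell in these comparisons. With an early window of 22 to 24 h the adjusted p ran from 0.0888 to 0.175 over the strains, and with a late window of 28 to 32 h from 0.0509 to 0.155. Leaving out 18, 20, 22 or 36 h ended the window call in lin-41(xe11) (adjusted p = 0.0501 to 0.0566), and leaving out 18, 22, 32, 34 or 36 h ended it in double mutants (adjusted p = 0.0592 to 0.0655).

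The neuronal markers fell over the same hours as lin-14. The log2 ratio of lin-14 to their summed level changed from early to late by -0.57 in N2, -0.28 in lin-41(xe11), -0.03 in double mutants and -0.27 in let-7(n2853). The decline was thus smaller relative to these markers in each strain, and near 0 in double mutants. As straight lines over all hours, 11 of 12 neuronal markers had a slope called lower in each strain, with medians of -0.56 in N2, -0.63 in lin-41(xe11), -0.61 in double mutants and -0.79 in let-7(n2853) (log2 per 10 h). Of the 8 markers of epidermis and seam, 5 had a slope called lower in N2 (median -1.15), 5 in lin-41(xe11) (median -0.99), 4 in double mutants (median -0.99) and 4 in let-7(n2853) (median -0.75). The part of either marker list in the fall of lin-14 was not tested.

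**Figure D2:**
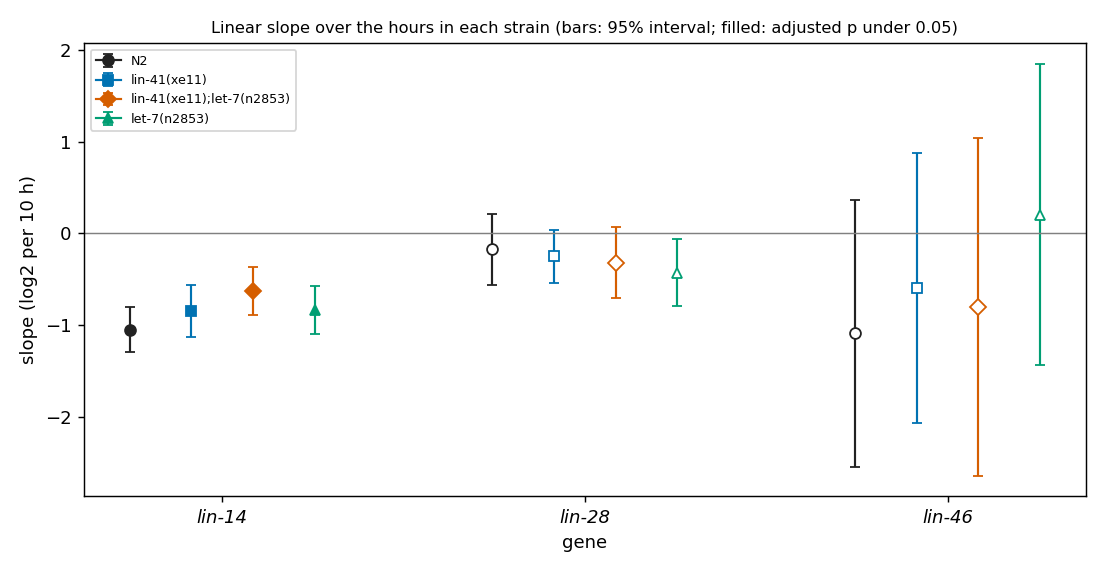
Linear slope in log2 per 10 h (y axis) of each gene (x axis) in each strain, with 95% intervals as bars and filled symbols where the adjusted p was under 0.05. The 4 slopes of lin-14 lie between -1.05 and -0.63 with intervals below 0, no slope of lin-28 passed, and the intervals of lin-46 are wide and hold 0.

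The decline of lin-14 was shallower in double mutants than in N2. The slopes differed by 0.44 ± 0.08 (log2 per 10 h, adjusted p = 0.00953), in a comparison where 0.27% of all genes had a slope called higher. Hour by hour, double mutants differed from N2 by -0.26 at 18 h, -0.24 at 20 h, 0.16 at 22 h and -0.01 at 24 h on the log2 scale. From 26 h the differences were 0.14, -0.01, 0.29 and 0.28, and they reached 0.73 at 34 h, 0.51 at 36 h and 0.57 at 38 h. The early hours straddle N2 and the last hours are all above it, at 8.56, 8.69 and 7.55 CPM against 5.15, 6.11 and 5.10 CPM. The other mutants were above N2 at these last hours as well. The differences of lin-41(xe11) were 0.29 at 34 h, 0.34 at 36 h and 0.40 at 38 h. Those of let-7(n2853), from the other time course, were 1.10 at 34 h and 0.46 at 36 h. The call ended without 18 h (0.43, adjusted p = 0.0591), without 36 h (0.44, adjusted p = 0.0584), without 38 h (0.45, adjusted p = 0.0644) and in the fit with no replicate block, that is without a term for each hour (0.43, adjusted p = 1.00).

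The other contrasts of lin-14 between strains did not pass. In the late window double mutants stood 0.34 ± 0.10 above N2 (adjusted p = 0.153), with 4 of 5 hours higher, and by 0.37 with windows of 18 to 26 h and 28 to 38 h (adjusted p = 0.0236). In lin-41(xe11), which has the lin-41 allele of double mutants and carries normal let-7, the slope differed from N2 by 0.20 ± 0.10 (adjusted p = 0.544). This strain was also above N2 at 4 of 5 late hours. The slopes of double mutants and lin-41(xe11) differed by 0.23 (95% interval 0.07 to 0.40, adjusted p = 1.00), so an equal slope was not shown. In let-7(n2853) the level of lin-14 was above N2 at 10 of 10 hours, by 0.10 at 20 h to 1.1 at 34 h on the log2 scale, and the slope differed by 0.22 ± 0.13 (adjusted p = 0.471). None of the 12 neuronal markers had a slope called different between double mutants and N2, and their median difference was -0.07; 0.548% of all genes were called. Ages were estimated against the N2 course from the genes that varied most along it. The age of double mutants ran from -0.8 to 0.4 h relative to the labelled hour. Matching the late window by this age gave 0.33 for the difference of double mutants to N2 (adjusted p = 0.542).

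**Figure D3:**
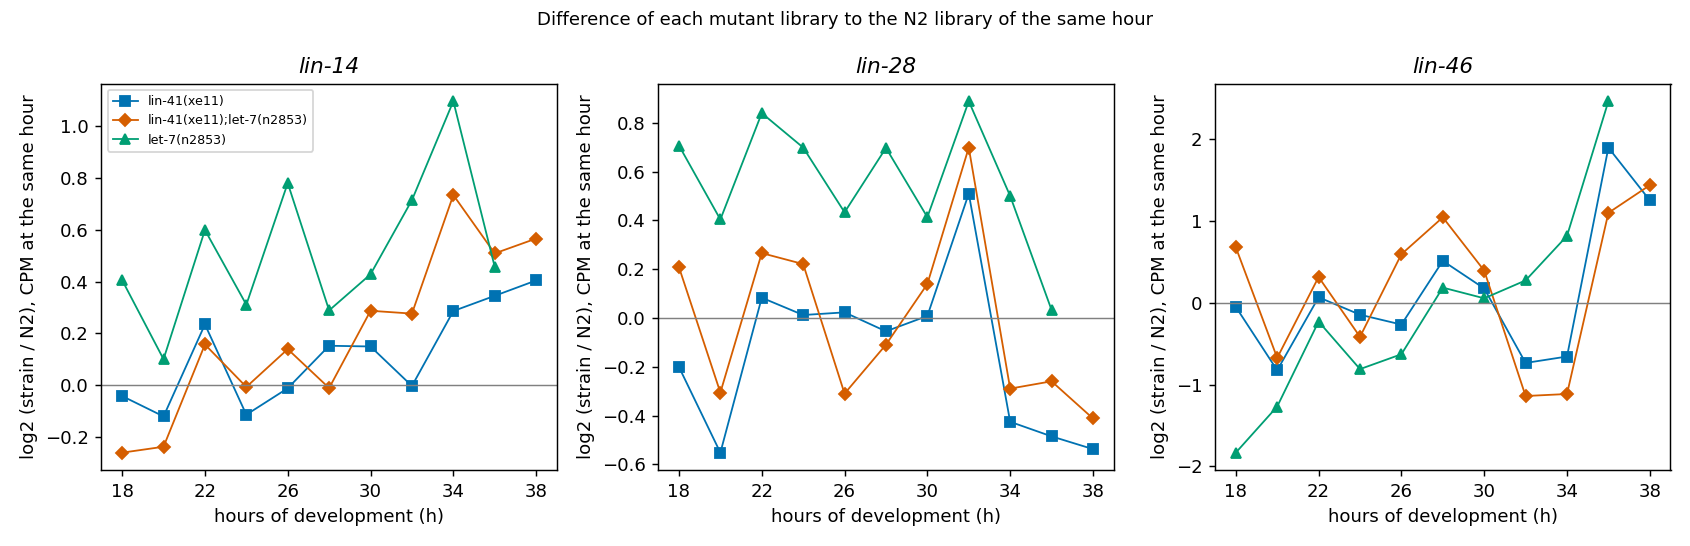
Log2 ratio of each mutant library to the N2 library of the same hour (y axis) against hours of development (x axis), 1 panel per gene and 1 line per mutant strain. For lin-14 from 34 to 38 h double mutants are 0.51 to 0.73 above N2, and lin-41(xe11) is 0.29 to 0.40 above it. For lin-28 let-7(n2853) is above N2 at every hour. For lin-46 let-7(n2853) is below N2 until 26 h and above it from 28 h.

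The decline of lin-14 was not even from hour to hour. In the strains of the second course the level was lower at 26 h than at 30 h, at 10.3 and 12.3 CPM in N2, 10.2 and 13.6 CPM in lin-41(xe11) and 11.4 and 15 CPM in double mutants. The order was the opposite in let-7(n2853), at 17.7 CPM at 26 h and 16.5 at 30 h, with 13.8 at 28 h between them. A cosine with a period of 8 h, about the spacing of the larval molts at this temperature, was fitted beside a linear trend at 18 to 36 h. Its amplitude for lin-14 was 0.33 in lin-41(xe11) (log2, limma adjusted p = 0.0169) and 0.23 in let-7(n2853) (adjusted p = 0.0424). It was 0.27 in N2 (adjusted p = 0.0767) and 0.28 in double mutants (adjusted p = 0.0575). The fitted peaks were at 22.2 and 30.2 h in N2, and the first peak lay at 21.9 h in lin-41(xe11), 22.4 h in double mutants and 23.2 h in let-7(n2853). Of all genes 7.14% were called rhythmic in N2, 24.2% in lin-41(xe11), 16.8% in double mutants and 31.6% in let-7(n2853). With a period of 9 h no gene was called in any strain, so the calls rest on the period chosen. The amplitudes of lin-28 (0.14 to 0.32) and lin-46 (0.90 to 1.07) did not pass in any strain, with adjusted p from 0.254 to 0.860.

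The footprints of lin-28 were highest at 18 h, the first hour sampled, in all 4 strains. At 18 h the level was 13.2 CPM in N2, with a Poisson interval of 11.4 to 15.3. At 22 h it was 5.62 CPM, with an interval of 4.14 to 7.45. The same pair of hours held 11.5 and 5.96 CPM in lin-41(xe11), 15.3 and 6.76 CPM in double mutants and 21.6 and 10.1 CPM in let-7(n2853). In each strain the counting intervals of these 2 hours do not overlap, and 20 h lies between them. The level at 32 h was above that at 20 h in lin-41(xe11), at 8.85 and 8.10 CPM. The same held in double mutants, at 10.1 and 9.61 CPM. From 22 to 36 h the level in N2 averaged 6.89 ± 1.13 CPM (SD over 8 hours), and that in let-7(n2853) 10.1 ± 0.94 CPM. The N2 levels of 7.97 CPM at 34 h, 8.84 at 36 h and 8.16 at 38 h were above each N2 level from 22 to 32 h (5.62 to 7.48 CPM). At these 3 hours lin-41(xe11) stood below N2 by -0.42, -0.48 and -0.54 and double mutants by -0.29, -0.26 and -0.41 on the log2 scale, differences that were given no test of their own. These hours were grouped after their values were seen, and the step was given no test.

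No test called lin-28. Its change from the early to the late window was -0.35 ± 0.28 in N2 (adjusted p = 0.418), -0.38 ± 0.26 in double mutants (adjusted p = 0.404) and -0.49 ± 0.23 in let-7(n2853) (adjusted p = 0.171). For lin-41(xe11) it was -0.22 ± 0.22 (adjusted p = 0.536). With an early window of 22 to 24 h, which leaves out 18 and 20 h, the changes were 0.24 in N2, 0.05 in double mutants, 0.00 in let-7(n2853) and 0.11 in lin-41(xe11), so the negative sign rests on the first hours. The slopes ran from -0.43 ± 0.16 in let-7(n2853) (adjusted p = 0.0766) to -0.17 ± 0.18 in N2 (adjusted p = 0.467). The late level was 7.24 ± 1.28 CPM in N2 (SD, n = 5), 6.83 ± 1.36 in lin-41(xe11) and 7.51 ± 1.81 in double mutants. In the late window double mutants differed from N2 by 0.01 (log2, 95% interval -0.27 to 0.28, adjusted p = 0.995). The difference of lin-41(xe11) to N2 was -0.12 (95% interval -0.40 to 0.17, adjusted p = 0.889). In let-7(n2853) lin-28 was above N2 at 10 of 10 hours, from 0.03 at 36 h to 0.89 at 32 h, a direction it shares with lin-14 and one that the time courses confound. Its change from early to late differed from that of N2 by -0.17 ± 0.18 (adjusted p = 0.773).

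The footprints of lin-46 came as a pulse. At 18 h the gene had 5 counts in N2, 4 in lin-41(xe11), 7 in double mutants and 2 in let-7(n2853), or 0.370, 0.357, 0.591 and 0.104 CPM. In N2 the level was 3.06 CPM at 20 h, 3.86 at 22 h, 5.73 at 24 h, 4.16 at 26 h, 4.22 at 28 h and 3.97 at 30 h. It was then 1.59 CPM at 32 h, 0.706 at 34 h, 0.218 at 36 h and 0.567 at 38 h, the last 4 values from 12, 7, 2 and 5 counts. The other strains had their highest level at 28 h, at 6.01 CPM in lin-41(xe11), 8.69 in double mutants and 4.79 in let-7(n2853). Over all strains the 20 libraries of 22 to 30 h held 2.69 to 8.69 CPM and the 15 libraries of 32 h and later held 0.218 to 1.92 CPM. These ranges do not overlap, and the hours were again grouped after their values were seen.

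The windows cut across this pulse and did not call it. The early window joins 18 h with 24 h and the late window 28 h with 36 h, and the SD of N2 was 2.23 CPM around an early mean of 3.26 (n = 4) and 1.85 CPM around a late mean of 2.14 (n = 5). The change in N2 was -0.65 ± 0.82 (adjusted p = 0.625), and it was -0.18 ± 0.85 in lin-41(xe11), 0.05 ± 0.99 in double mutants and 0.39 ± 0.75 in let-7(n2853), with adjusted p from 0.779 to 0.986. The slope in N2 was -1.09 ± 0.66 (log2 per 10 h, adjusted p = 0.216). It was -1.79 without 18 h (adjusted p = 0.0127) and -1.34 with DESeq2 (adjusted p = 0.0424), so its call turns on the first library and the tool.

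Between strains no difference of lin-46 passed. Double mutants exceeded N2 by 1.04 on the log2 scale at 28 h, where their levels of 8.69 and 4.22 CPM had counting intervals of 6.96 to 10.7 and 2.86 to 5.98. At 32 and 34 h they were below N2 by -1.14 and -1.11, on 6 and 4 counts. At 36 and 38 h they were above it by 1.10 and 1.44, on 5 and 13 counts against 2 and 5 in N2. These single hours were given no test of their own. Over the late window the difference was 0.36 ± 0.27 (adjusted p = 0.678), and without 28 h it was -0.08 (adjusted p = 0.959). Over all 11 hours lin-46 differed from N2 by 0.24 ± 0.17 in double mutants (adjusted p = 0.548), and lin-41(xe11) differed by 0.02 ± 0.18 (adjusted p = 1.00). In let-7(n2853) lin-46 was below N2 at each hour from 18 to 26 h and above it at each hour from 28 to 36 h. The log2 differences ran from -1.27 to -0.23 at 20 to 26 h and from 0.05 to 0.82 at 28 to 34 h. At 18 h let-7(n2853) stood at 0.104 CPM and N2 at 0.370, on 2 and 5 counts, and at 36 h at 1.2 and 0.218 CPM, on 31 and 2 counts. Its slope exceeded that of N2 by 1.43 ± 0.30 (log2 per 10 h, adjusted p = 0.0554), where 0.275% of all genes had a slope called higher. The adjusted p was 0.0183 on the deposited log2 table (1.04) and 0.0382 without 22 h (1.70), and the slope difference was 1.19 without 36 h (adjusted p = 0.197). The late minus early difference of differences was 1.18 ± 0.38 (adjusted p = 0.357). The estimated age of let-7(n2853) ran behind the labelled hour by a median of -0.9 h, and by -2.5 h at 36 h. The part of this lag in the higher late level of lin-46 was not tested.

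Per kilobase of coding length the members could be set side by side. In the early libraries of N2 the level per kb was 11.6 ± 0.73 CPM for lin-14 (SD, n = 4), 13.6 ± 5.61 for lin-28 and 2.78 ± 1.90 for lin-46. In the late libraries it was 5.34 ± 1.93 CPM per kb for lin-14 (SD, n = 5), 10.6 ± 1.88 for lin-28 and 1.82 ± 1.58 for lin-46. The early levels of lin-14 and lin-28 did not differ beyond their spread, and lin-46 lay below both in each N2 library. The ratio of lin-28 to lin-14 per kb in N2 was 1.58 at 18 h, 0.718 at 22 h and 3.78 at 38 h. Its lowest value was at 22 h in all 4 strains. The highest value was 2.53 in lin-41(xe11) and 2.37 in double mutants, both at 32 h, and 2.56 in let-7(n2853) at 36 h.

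**Figure D4:**
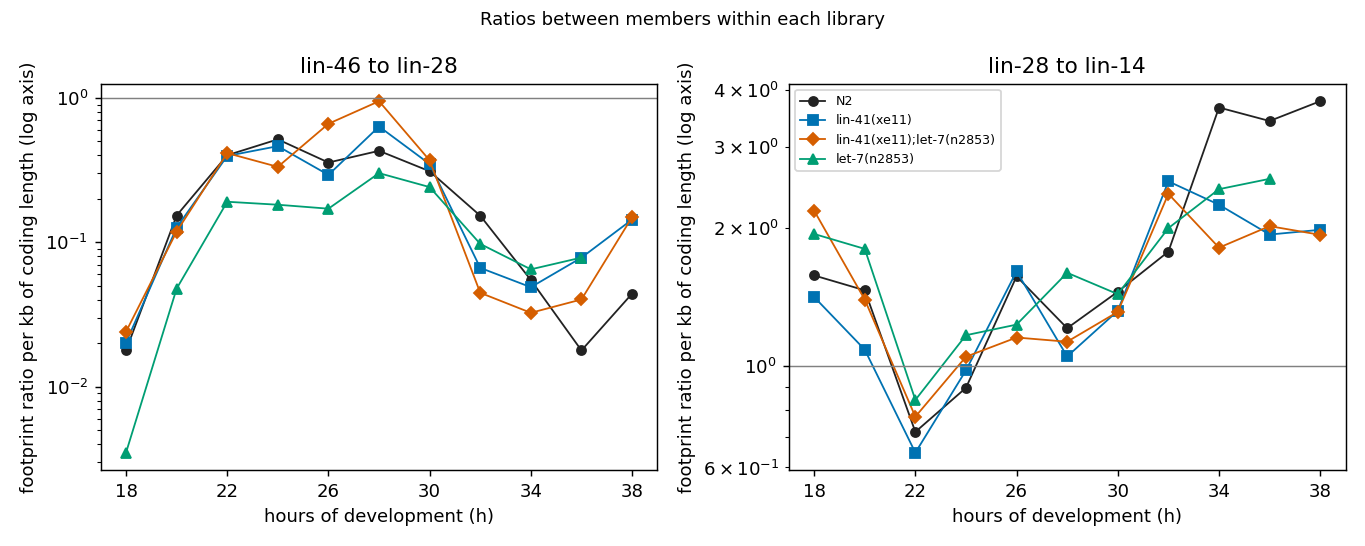
Ratio of lin-46 to lin-28 (left) and of lin-28 to lin-14 (right) per kb of coding length within each library (y axis, log scale) against hours of development (x axis), 1 line per strain. The left ratio is highest between 24 and 28 h, with a highest value of 0.950 in double mutants, and the right ratio has its lowest value at 22 h in every strain.

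The ratio of lin-46 to lin-28 within a library needs no scaling between libraries. Per kb it was 0.0178 in N2 at 18 h, 0.517 at 24 h and 0.0548 at 34 h, so the pulse of lin-46 is seen against lin-28 as well. The highest values were 0.634 in lin-41(xe11), 0.950 in double mutants and 0.301 in let-7(n2853), all at 28 h. Over 11 hour-matched pairs the log2 ratio differed from N2 by 0.24 ± 0.94 in lin-41(xe11) (SD, higher in 5 of 11 pairs) and by 0.20 ± 1.03 in double mutants (higher in 7 of 11). The log2 ratio of lin-28 to lin-14 differed from N2 by -0.26 ± 0.43 in lin-41(xe11) (higher in 3 of 11) and by -0.21 ± 0.53 in double mutants (higher in 4 of 11). None of 6 such comparisons passed a two-sided exact permutation test by sign flips, with p from 0.0771 to 0.813 and adjusted p from 0.463 to 0.813.

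The genes whose course was most like that of each member were named by the Pearson correlation of log2 CPM over the 33 libraries of the second course. The libraries share their hours and their trend, so these values describe the course and have no test. For lin-14 they were lgc-34, a ligand-gated ion channel gene (0.96), cah-6 (0.96), myo-6 (0.96), zig-1 (0.95) and txt-13 (0.94). In the 10 libraries of let-7(n2853) the same genes stood at 0.95 to 0.98. For lin-28 the values were lower, at 0.77 for ncx-3, a sodium-calcium exchanger gene, 0.74 for guk-1, 0.71 for dlg-1, 0.70 for rhgf-1 and 0.65 for pqn-75. For lin-46 they were 0.86 for lin-12, a Notch receptor gene, 0.84 for fog-1, a germline regulator, 0.80 for phat-4, 0.78 for clc-15 and 0.77 for mex-3. By Spearman correlation 3 of these 5 genes were again among the first 5 for lin-14 (with akt-2 first), 4 of 5 for lin-28 (with guk-1 first) and 3 of 5 for lin-46 (with fog-1 first). In let-7(n2853) lin-12 stood at 0.79 and fog-1 at 0.75 beside lin-46, and clc-15 at 0.17. Among the members themselves the correlation of lin-28 with lin-46 was -0.56 in N2 (11 libraries), -0.45 in lin-41(xe11), -0.49 in double mutants and -0.84 in let-7(n2853) (10 libraries). That of lin-14 with lin-46 was 0.54, 0.40, 0.44 and -0.12 in the same order, and that of lin-14 with lin-28 was 0.16, 0.37, 0.38 and 0.49. By Spearman correlation lin-28 with lin-46 stood at -0.67, -0.33, -0.42 and -0.41. In the same measure lin-14 with lin-46 stood at 0.29, 0.34, 0.40 and 0.18, and lin-14 with lin-28 at 0.05, 0.42, 0.38 and 0.38. The 18 h library of let-7(n2853) held 2 counts of lin-46 and the highest lin-28 level of that strain.

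Some other heterochronic genes had larger changes than lin-14. Of a list of 25 further pathway genes, 24 were tested in N2 from the early to the late window, where 2 rose and 4 fell, with a median of -0.29 beside -0.02 over all genes. Of all genes 8.33% rose and 8.13% fell. The transcription factor gene lin-29 rose by 3.64 ± 0.43 (adjusted p = 0.00558) and its cofactor mab-10 by 4.70 ± 0.88 (adjusted p = 0.0136). The genes that fell were lin-41 (-2.53 ± 0.36, adjusted p = 0.00908), the transcription factor gene hbl-1 (-2.57 ± 0.36, adjusted p = 0.00908), the nuclear receptor gene daf-12 (-2.54 ± 0.26, adjusted p = 0.0053) and its corepressor din-1 (-1.28 ± 0.23, adjusted p = 0.0129). All 6 calls held with any 1 of the 9 hours left out. With an early window of 22 to 24 h only 2 genes of the whole table were called and none of these 6 was, at adjusted p from 0.114 to 0.124. With a late window of 28 to 32 h the calls of hbl-1 (-2.24, adjusted p = 0.0522) and din-1 (-1.06, adjusted p = 0.0626) ended. That window gave no value for mab-10. The change of lin-14, -1.16, was nearest to that of din-1. In the late window lin-41 itself exceeded its N2 level by 1.60 ± 0.24 in the single mutant (adjusted p = 0.00256) and by 1.43 ± 0.24 in double mutants (adjusted p = 0.00428), where 0.0666% and 0.267% of all genes were called higher. Both calls held in the 13 alternatives run for lin-41, which were hours left out, other windows and no replicate block. The values were 1.29 to 2.49 in the single and 1.09 to 2.16 in double mutants. They were highest with a late window of 28 to 32 h and lowest with windows of 18 to 26 h and 28 to 38 h. Matched by estimated age, 0 genes of the table, and so not lin-41, were called in the late comparison of either mutant to N2. These mutants differed from each other by -0.17 ± 0.22 (adjusted p = 1.00).

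The slope difference between double mutants and N2 that called lin-14 called 2 of the 24 listed genes, both higher, beside 0.27% of all genes. The slope of daf-12 was higher by 1.31 ± 0.14 (adjusted p = 8.82e-05). That of hbl-1 was higher by 0.68 ± 0.13 (adjusted p = 0.0182), beside 0.44 for lin-14. With no replicate block daf-12 was the only gene of the table called (1.31, adjusted p = 0.00172), and hbl-1 was not (0.70, adjusted p = 1.00). The call of hbl-1 also ended without 34 h (0.60, adjusted p = 0.0809), without 36 h (0.68, adjusted p = 0.0704) and without 38 h (0.70, adjusted p = 0.0692), while that of daf-12 held with any hour left out. Both are known targets of let-7 family microRNAs, and the part of let-7 in these slope differences was not tested. The median of the list was 0.01, the same as over all genes. In lin-41(xe11) none of the 24 had a slope called different from N2, as 0.124% of all genes did. Between let-7(n2853) and N2 the slope of daf-12 was higher (1.32 ± 0.17, adjusted p = 0.0164), where 0.275% of all genes were called higher. That of lin-29 was lower (-1.24 ± 0.22, adjusted p = 0.0369), where 0.481% of all genes were called lower. The call of daf-12 ended without 34 h (1.30, adjusted p = 0.0582) and without 36 h (1.44, adjusted p = 0.0819), when no gene of the table was called. The call of lin-29 ended whichever hour was left out, at -1.55 to -1.04 (adjusted p = 0.0548 to 0.133), and with no replicate block (-1.27, adjusted p = 0.450). The libraries of let-7(n2853) and N2 come from different time courses. The estimated age of let-7(n2853) also ran behind the labelled hour, by a median of -0.9 h and by -2.5 h at 36 h. The part of this lag in the slope differences of daf-12 and lin-29 was not tested. The comparisons of the mutants share the N2 libraries.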

How the data were processed

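Ribosome footprints of whole worms were counted per gene in 43 libraries. The authors deposited raw counts per gene and a table of log2 values. The deposited log2 values equal log2 of the scaled count plus 8, as computed here from both tables (largest deviation 5.1e-09), with totals of 26096086 in the first course and 12019637 in the second. Reads were mapped with Bowtie, per the submitters' processing notes. The build, the annotation, the version of the aligner and its handling of reads with several matches are not given in the sources used here. Symbols were joined by exact gene identifier (18778 matched), and positions are those of WBcel235. No 2 of the 43 libraries were identical.

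The deposited counts were tested with the quasi-likelihood test of edgeR 4.0.16 in R 4.3.3, with TMM scaling, genes of at least 1 CPM in at least 5 libraries and Benjamini-Hochberg adjustment over all genes tested. All 3 members passed this filter. The standard error is the one implied by the p-value of the test. Calls are adjusted p under 0.05. Strains were compared with a term for each hour, and let-7(n2853) with N2 only as a difference of slopes or of late minus early changes. Hours pair the libraries by their labels. Deviations of same-hour libraries from their strain means correlated at 0.762 to 0.979 over 33 pairs (median 0.908). Those of other hours correlated at -0.880 to 0.920 over 330 pairs (median -0.119). Libraries of the same hour share their stage, so these values cannot show whether the cultures were paired. Rhythms were fitted with limma 3.58.1 on log2 CPM with a prior count of 2, and ratios with 0.5 added to each count. Alternatives included DESeq2 1.42.0, other size factors, no count filter, other windows, the deposited log2 table and each hour left out. The fits were tested on simulated data with no trend of their own. The planted changes were larger than the slope difference of lin-14 and lay in genes averaging at least 5 CPM. That test does not show how well smaller changes, or genes as low as lin-46, are called. The named genes were the members, called members of the pathway list and the 5 genes most correlated with each member, among those with a mean of at least 5 CPM. The members, lists and windows were chosen with earlier results of these data known. Of the 25 listed pathway genes, lep-2 is not analysed here.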

Additional observations from a re-analysis of the deposited data

Results flagged for a closer look

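The level of lin-14 in double mutants at 22 h, 20.9 CPM, stood apart from the other early hours of that strain (16.6, 16.4 and 17.1 CPM). Its gap to the nearest of them was 0.841 of the range of the 4 values. It was the only one of 24 groups of a member, strain and window to stand apart in this way, and chance gives about 1 in 20. Without 22 h the early to late change of lin-14 in double mutants was -0.64 (adjusted p = 0.0608), and its slope difference to N2 was 0.47 (adjusted p = 0.00963).

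The slope of lin-14 differed between double mutants and N2 by 0.44 log2 per 10 h in the edgeR test of the difference itself.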

How the results depend on the processing

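Over 105 results and their alternatives, 1221 of 1331 values kept their direction and their side of the threshold, 49 lost a call, 6 gained one, 53 changed sign and 2 moved. None of the sign changes was of a result that had been called. Of the lost calls 24 were of lin-14 and the others of pathway genes, whose alternatives were added after seeing the data. The values that moved are the lists of genes most like lin-14 and lin-46 by Spearman correlation, each sharing 3 of 5 genes with the list by Pearson correlation. Its slopes within each strain passed in every alternative, from -1.13 to -0.97 in N2, -0.90 to -0.77 in lin-41(xe11), -0.71 to -0.55 in double mutants and -0.93 to -0.75 in let-7(n2853). The causes of the changes below were not tested.

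An early window of 22 to 24 h, chosen after seeing the data, gave lin-14 late minus early -1.12 in N2, -0.99 in lin-41(xe11), -0.86 in double mutants and -0.97 in let-7(n2853), none called. It gave lin-28 0.24, 0.11, 0.046 and 0.00014 in the same order, and lin-46 -0.32 in let-7(n2853). For lin-14 it gave early differences of 0.055 (double mutants to N2), 0.0031 (double mutants to lin-41(xe11)) and 0.052 (lin-41(xe11) to N2). For lin-41(xe11) to N2 it gave lin-28 0.033 early and -0.15 late minus early, and for double mutants to lin-41(xe11) it gave lin-46 -0.052 early. A late window of 28 to 32 h gave lin-14 -0.88 in N2, -0.74 in lin-41(xe11), -0.60 in double mutants and -0.73 in let-7(n2853), none called. It gave lin-28 0.17 (double mutants to N2, late minus early), 0.049 (let-7(n2853) to N2, late minus early) and 0.16 (lin-41(xe11) to N2, late), and lin-46 0.43 in lin-41(xe11). Windows of 18 to 26 h and 28 to 38 h gave lin-14 0.37 (double mutants to N2, late, called), lin-28 -0.060 in that contrast and -0.030 (lin-41(xe11) to N2, late minus early), and lin-46 -0.36 (double mutants, late minus early) and 0.039 (double mutants to N2, early).

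The deposited log2 table gave lin-28 0.012 (double mutants to N2, late minus early) and lin-46 -0.42 (double mutants, late minus early), -0.033 (double mutants to lin-41(xe11), late) and 1.04 (slope, let-7(n2853) to N2, called). DESeq2 called the slope of lin-46 in N2 (-1.34). Matching by age gave lin-46 -0.020 (double mutants to N2, late). Without the replicate block the slope difference of lin-14 between double mutants and N2 was 0.43 and not called, and no other call of a member changed. A rhythm period of 7 h gave lin-14 a call in double mutants and ended that in let-7(n2853), and 9 h ended both calls.

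With each hour left out in turn, lin-14 ranged over -1.09 to -0.84 (lin-41(xe11), late minus early), -0.86 to -0.64 (double mutants, late minus early), 0.39 to 0.47 (slope, double mutants to N2) and -0.10 to 0.015 (lin-41(xe11) to N2, early). For lin-28 the slope ranged over -0.26 to 0.043 in N2, -0.11 to 0.0068 for double mutants to lin-41(xe11) and -0.17 to 0.0091 for lin-41(xe11) to N2. For double mutants to N2 lin-28 ranged over -0.16 to 0.099 (late), -0.23 to 0.017 (late minus early) and -0.081 to 0.016 (all hours), and for lin-41(xe11) to N2 over -0.068 to 0.19 (late minus early). For lin-46 the slope ranged over -1.79 to -0.71 in N2, -0.48 to 0.71 in let-7(n2853) and 1.19 to 1.70 between them. Late minus early lin-46 ranged over -0.57 to 0.094 in lin-41(xe11) and -0.31 to 0.35 in double mutants. Between strains lin-46 ranged over -0.38 to 0.032 (double mutants to N2, early), -0.077 to 0.57 (the same, late), -0.016 to 0.28 (double mutants to lin-41(xe11), early), -0.15 to 0.24 (the same, late) and -0.054 to 0.098 (lin-41(xe11) to N2, all hours). Within lin-41(xe11) and double mutants lin-46 was under the count filter without 20, 22, 24, 28 or 30 h and with the early window of 22 to 24 h, which gave no value.

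Counts of genes called moved more than the members did. Late minus early calls numbered 1944 in N2 (2 to 3009 over the alternatives), 2025 in lin-41(xe11) (0 to 2875), 1476 in double mutants (0 to 2263) and 2380 in let-7(n2853) (0 to 3149). Slope differences to N2 numbered 75 in double mutants (1 with no replicate block to 125 with DESeq2), 17 in lin-41(xe11) (0 to 78) and 99 in let-7(n2853) (0 without 34 h to 414 with DESeq2). Late differences to N2 numbered 123 in double mutants (0 matched by age to 329) and 56 in lin-41(xe11) (0 to 138). The counts of lin-46, 2 to 13 per library at 18 h and after 30 h in the second course, limit what can be said of its lowest levels.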
